A study of Homo sapiens with 29 samples.

Results

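Markers of neuroendocrine and neuronal cells were followed through RNA-seq of COLO320DM tumors treated with a peptide directed at β-catenin and TCF. The genes were NCAM1, SEZ6, NXPH4, INSM1, SYP and UCHL1, chosen by name, and 5 of these 6 had a row among the 13492 genes of the deposited table. INSM1, a zinc-finger transcription factor of neuroendocrine cells, was looked for by symbol and by Ensembl ID, found under neither, and is not analysed here. COLO320DM is an established human line labelled colorectal adenocarcinoma and known for neuroendocrine features, and it was grown as xenografts in mice whose strain, sex and age the labels do not give. All 29 tumor libraries are labelled 48 h. They comprise vehicle (n = 10), Helicon4neg_30mpk (n = 8), Helicon4_30mpk (n = 6) and Helicon4_100mpk (n = 5), with mpk the dose unit as labelled. Every group is the same single cell line, while the labels do not show whether the hosts of treated and control tumors were alike. Helicon4 is the helicon peptide of the series title and Helicon4neg a companion peptide known here by its label alone, with no structure given for either. Only the replicate numbers mark libraries as separate samples, so p-values measure the spread between these samples, which may be partly technical.

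Neuroendocrine cells store peptide hormones and amines in vesicles and carry surface and vesicle proteins that they share with neurons. Pathologists use NCAM1 (the antigen CD56), synaptophysin and INSM1 to recognise neuroendocrine tumors, and UCHL1 (PGP9.5) is an abundant ubiquitin hydrolase of neurons and neuroendocrine cells. NXPH4 is a secreted ligand of the neurexin system, which organises synapses, and SEZ6 is a neuronal surface protein cut by BACE proteases.

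All 5 genes are protein-coding in GENCODE 29 (GRCh38). NCAM1 lies on chr11:112961247-113278436 (plus strand), NXPH4 on chr12:57216795-57226449 (plus), SEZ6 on chr17:28954901-29006440 (minus), SYP on chrX:49187804-49200259 (minus) and UCHL1 on chr4:41256413-41268455 (plus). Their merged exons span 12737, 2150, 5115, 5215 and 2282 bases in the same order, the lengths also given in the deposited table. Annotated antisense genes overlap 4.33% (NCAM1-AS1) and 1.19% (AP000802.1) of NCAM1 exon bases, 1.30% of SYP (SYP-AS1) and 5.92% of UCHL1 (UCHL1-AS1). Whether counting used strand is not given in the sources used here, so reads in those stretches cannot be assigned to one strand.

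The promoters of SYP and UCHL1, the members with an entry in the RefSeq promoter table (GRCh38.p14), are shown because TCF acts through DNA and because SYP was called below and UCHL1 was not. Each runs from 250 bases before to 50 bases after the annotated start, SYP at chrX:49200144-49200443 (minus strand) and UCHL1 at chr4:41256678-41256977 (plus strand). Capitals mark the motif matches named next.
SYP: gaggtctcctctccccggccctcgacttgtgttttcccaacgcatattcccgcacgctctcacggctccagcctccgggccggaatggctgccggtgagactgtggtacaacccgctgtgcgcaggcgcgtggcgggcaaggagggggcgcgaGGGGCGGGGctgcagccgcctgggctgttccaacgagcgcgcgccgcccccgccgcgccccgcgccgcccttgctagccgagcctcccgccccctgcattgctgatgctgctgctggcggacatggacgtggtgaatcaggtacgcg
UCHL1: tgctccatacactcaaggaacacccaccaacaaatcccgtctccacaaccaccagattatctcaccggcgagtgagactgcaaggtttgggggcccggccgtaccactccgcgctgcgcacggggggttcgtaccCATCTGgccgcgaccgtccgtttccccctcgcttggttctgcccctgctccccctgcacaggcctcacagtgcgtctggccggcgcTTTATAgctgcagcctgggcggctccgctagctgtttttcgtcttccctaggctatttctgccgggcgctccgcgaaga
The SYP promoter, 71.3% G or C against a median of 58.7% in the table, held one GC box (GGGGCGGGG) starting at position -97, a motif found in 15.7% of 35116 promoters on either strand. The UCHL1 promoter, 63.0% G or C, held an E-box of the NEUROD type (CATCTG) at -115, present in 14.7% of promoters, and a TATA box (TATAAA, read on the opposite strand) at -29, present in 11.5%. Neither window held the TCF/LEF core CTTTGAT (2.62% of promoters), the E-box CAGCTG (17.9%), or the REST half-sites TTCAGCACC (0.376%) and GGACAG (20.5%). Both strands were searched for every motif, and the letters are a description of these windows only.

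Values are CPM on the authors' scaling, with 26.8 to 61.6 M whole reads per library recovered from them. A log2 fold change is a difference of mean log2(CPM + 1) from limma, which understates changes near 1 CPM, and adjusted p-values are Benjamini-Hochberg over 13373 genes. A gene is called at an adjusted p under 0.05. Of 11 colorectal epithelial markers 7 had a row. In vehicle CDX2, KRT8, KRT18 and EPCAM averaged 3135, 175, 111 and 27.9 CPM. GPA33, KRT20 and KRT19 averaged 14.6, 4.61 and 0.690 CPM. Technical features of the libraries also differ between the groups. Titles carry codes of unstated meaning, and no code holds both vehicle and Helicon4 libraries. A fit with the code as a block therefore compares them only indirectly, through codes shared with Helicon4neg and, for Helicon4_100mpk, with Helicon4_30mpk. In that fit Helicon4_30mpk meets Helicon4neg through replicate 1 alone (code SH7081) and Helicon4_100mpk through replicate 6 alone (SH7083). Vehicle meets Helicon4neg through 2 libraries (SH7080). Differences from that fit rest on these few linking libraries. Each library also has a slope of log2 values on log2 gene length, lowest in Helicon4neg_30mpk replicate 2 (-0.321), next in vehicle replicate 6 (-0.186) and highest in Helicon4_30mpk replicate 1 (0.121).

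Per kilobase of exon, the members spanned nearly the whole range of expressed genes in vehicle tumors. UCHL1 averaged 272 CPM per kb and exceeded 99.0% of genes in the table, NXPH4 averaged 8.33 (above 62.3%), SYP 1.54 (above 23.6%), NCAM1 0.144 (above 1.99%) and SEZ6 0.113 (above 1.33%). The order UCHL1, NXPH4, SYP, NCAM1 held in 29 of 29 libraries on the per-kb scale. NCAM1 exceeded SEZ6 in 7 of 10 vehicle libraries, 6 of 8 with Helicon4neg_30mpk, 0 of 6 with Helicon4_30mpk and 1 of 5 with Helicon4_100mpk. Thus a hydrolase and a synaptic ligand were readily measured, while the surface marker NCAM1 rested on 22 to 138 reads per library and SEZ6 on 9 to 114. All 5 passed the filter of at least 1 CPM in at least 5 libraries, SEZ6 with exactly 5.

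**Figure D1:**
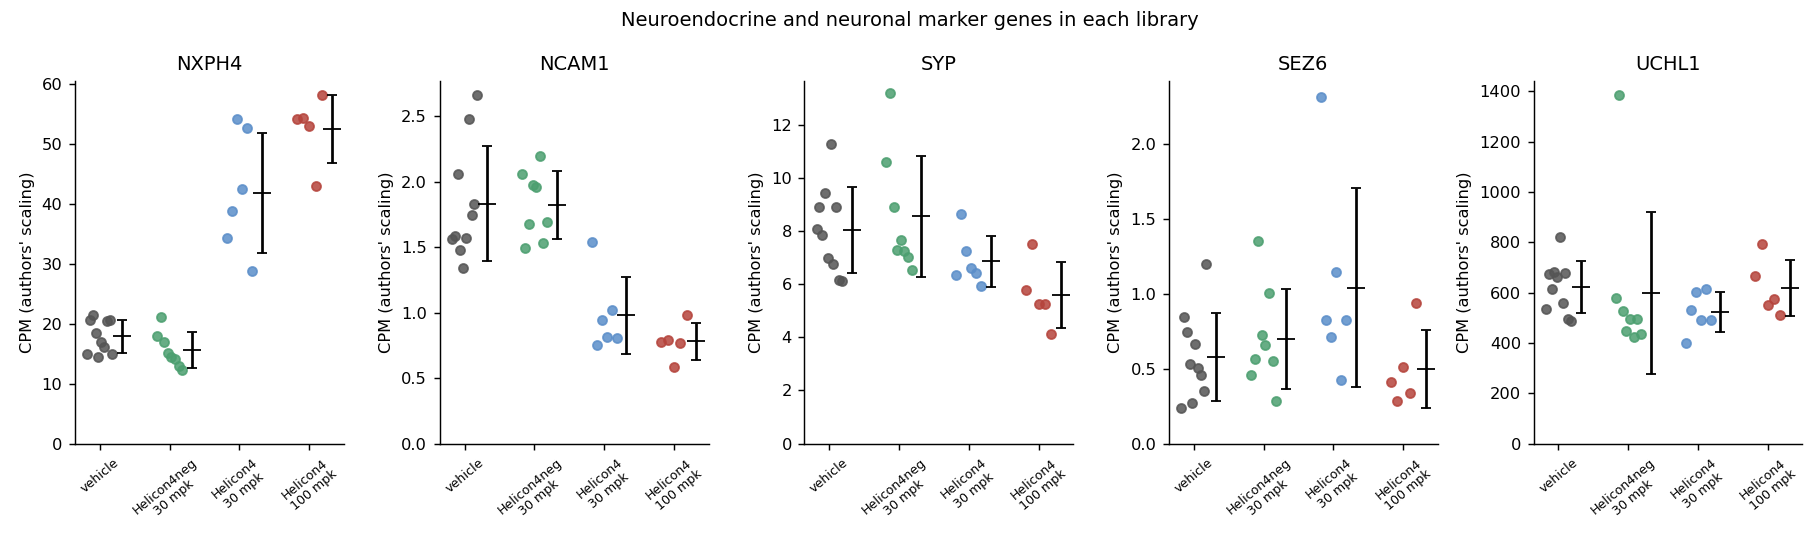
CPM on the authors' scaling (vertical axis, linear from 0, a scale per gene) of 5 marker genes in each library by treatment group; points are libraries and bars the mean with SD. NXPH4 in both Helicon4 groups lies above every vehicle and Helicon4neg library, and NCAM1 at 100 mpk lies below every vehicle library.

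Helicon4_100mpk was first compared with vehicle, where 3 of 5 members were called against 30.2% of all genes tested. NXPH4 rose (14.3% of all genes were called higher), NCAM1 and SYP fell (15.9% lower), and SEZ6 and UCHL1 were not called. With Helicon4_30mpk against vehicle 2 of 5 were called, NXPH4 higher and NCAM1 lower, beside 11.1% of all genes (5.86% higher, 5.22% lower). At matched dose, Helicon4_30mpk against Helicon4neg_30mpk, the same 2 genes were called in the same directions, beside 15.1% of all genes (7.78% higher, 7.31% lower). Helicon4neg_30mpk against vehicle gave 0 of 5 calls with limma, beside 4.84% of all genes (2.21% higher, 2.62% lower), with 0 at an unadjusted p under 0.05 and 0 with edgeR or DESeq2. Helicon4_100mpk against Helicon4_30mpk also gave 0 of 5, beside 3.6% of all genes (1.74% higher, 1.86% lower), with 2 (SEZ6 and NXPH4) at an unadjusted p under 0.05 and 0 with edgeR or DESeq2. The 3 comparisons with vehicle share its 10 libraries.

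**Figure D2:**
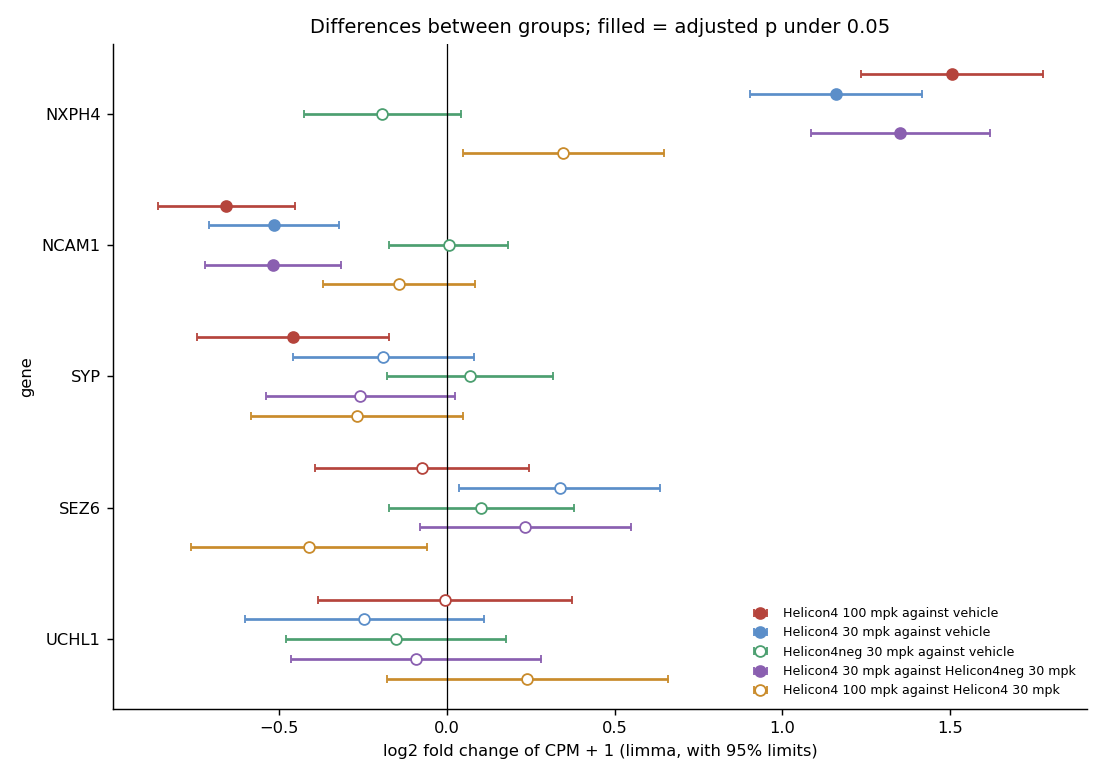
Log2 fold change of CPM + 1 (horizontal axis) for each gene in 5 comparisons, with 95% limits from limma; filled points have an adjusted p under 0.05. NXPH4 was called higher and NCAM1 lower in the same 3 comparisons, and SYP was called lower at 100 mpk against vehicle.

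NXPH4, the neurexophilin, had the largest change of the 5 genes. In vehicle it ranged from 14.4 to 21.5 CPM with a median of 17.7, and with Helicon4neg_30mpk from 12.3 to 21.2 with a median of 14.8. With Helicon4_30mpk the lowest, median and highest libraries had 28.8, 40.6 and 54.1 CPM. The 5 libraries of Helicon4_100mpk had 54.1, 54.3, 52.9, 42.9 and 58.1 CPM. Every Helicon4 library was thus above every library without Helicon4, while the 2 doses overlapped. Group means were 17.9 ± 2.74 (SD, n = 10), 15.6 ± 2.94 (n = 8), 41.8 ± 10.0 (n = 6) and 52.4 ± 5.70 CPM (n = 5).
The log2 fold change against vehicle was 1.51 ± 0.13 (SE) at 100 mpk (limma adjusted p = 3.3e-10) and 1.16 ± 0.13 at 30 mpk (4.5e-08). Mean CPM was 2.93 and 2.34 times the vehicle mean. Against Helicon4neg at 30 mpk the difference was 1.35 ± 0.13 (95% limits 1.08 to 1.62, limma adjusted p = 5.2e-09), a ratio of mean CPM of 2.68. Helicon4neg differed from vehicle by -0.19 (limits -0.43 to 0.04, adjusted p = 0.37), so a fall of the size of the lower limit is not excluded. Between doses the difference of 0.35 (limits 0.05 to 0.65) missed the threshold after adjustment (adjusted p = 0.20).
Libraries under the same title code kept this order. In code SH7081 the single Helicon4_30mpk library had 34.2 CPM and the 3 Helicon4neg libraries 12.3 to 14.1 CPM. In code SH7083 the single Helicon4_30mpk library had 28.8 CPM and 4 Helicon4_100mpk libraries 42.9 to 54.3 CPM. With the code as a block in the limma fit, NXPH4 remained called at 2.08 and 1.28 for 100 and 30 mpk against vehicle and 1.32 against Helicon4neg. These values too pass through the single Helicon4_30mpk library of code SH7081.

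NCAM1, an adhesion molecule of neurons, neuroendocrine cells and natural killer cells, was lower with Helicon4. Vehicle libraries had 1.34 to 2.66 CPM with a median of 1.66, and Helicon4neg_30mpk libraries 1.50 to 2.20 with a median of 1.82. With Helicon4_30mpk the lowest, median and highest values were 0.756, 0.877 and 1.54 CPM. Helicon4_100mpk libraries had 0.774, 0.794, 0.587, 0.770 and 0.985 CPM. All 5 high-dose libraries and 5 of 6 low-dose libraries were below every vehicle and Helicon4neg library, the exception being Helicon4_30mpk replicate 1. Group means were 1.83 ± 0.440 (SD, n = 10), 1.82 ± 0.258 (n = 8), 0.979 ± 0.293 (n = 6) and 0.782 ± 0.141 CPM (n = 5).
NCAM1 fell by 0.66 ± 0.10 (SE) on the log2 scale at 100 mpk (limma adjusted p = 8.5e-06) and by 0.51 ± 0.09 at 30 mpk (0.00026) against vehicle. At matched dose Helicon4 was below Helicon4neg by a log2 difference of -0.52 ± 0.10 (limits -0.72 to -0.32, limma adjusted p = 0.00037). Because its level is near the pseudocount, the size depends on the scale: mean CPM was 0.427 and 0.534 times vehicle and 0.537 times Helicon4neg. On recovered reads edgeR gave -1.22, -0.90 and -0.90 for these comparisons, all called. Helicon4neg differed from vehicle by 0.00 (limits -0.17 to 0.18, adjusted p = 0.98) and the doses by -0.14 (limits -0.37 to 0.08, adjusted p = 0.55).
The title code limits these calls. Within code SH7081 the single Helicon4_30mpk library (1.54 CPM) lay among the 3 Helicon4neg libraries (1.53 to 2.20 CPM). With the code as a block the differences at 100 and 30 mpk were -0.38 and -0.32 against vehicle, and -0.14 against Helicon4neg at 30 mpk. None was called by limma. The difference from Helicon4neg has that single library alone on the Helicon4 side, and those from vehicle pass through it. This fit therefore cannot tell an effect of the code from that library's own level.
Some marker lists of other cell types also had lower levels with Helicon4. In bulk tumors fewer cells of a type and less RNA per cell cannot be told apart. Fibroblast, endothelial and leukocyte markers, called host-type here, had 8 of 14, 2 of 7 and 4 of 8 genes with a row. Whether their reads came from host or tumor cells was not tested. Their mean log2 level was 3.78 ± 0.12 (SD, n = 10) in vehicle and 3.86 ± 0.09 (n = 8) with Helicon4neg_30mpk. It was 3.59 ± 0.12 (n = 6) with Helicon4_30mpk and 3.50 ± 0.13 (n = 5) with Helicon4_100mpk. With that level as a covariate NCAM1 stayed called against vehicle (-0.38, adjusted p = 0.019, and -0.32, 0.025) and was not called against Helicon4neg (-0.26, 0.13). The markers in that level went both ways: at 100 mpk against vehicle 3 of 8 fibroblast markers were called higher and 4 lower, 2 of 2 endothelial markers lower, and 1 of 4 leukocyte markers higher and 1 lower. Summed leukocyte markers averaged 34.4 CPM in vehicle and 34.2 CPM with Helicon4_100mpk, against 431 and 257 CPM for fibroblast and 60.1 and 31.9 CPM for endothelial markers. Of 11 Schwann cell markers 4 had a row (ERBB3, MBP, PMP22 and PRX), and their summed level was 25.5 to 34.8 CPM in vehicle, 29.9 to 38.9 with Helicon4neg, 15.4 to 20.2 with Helicon4_30mpk and 17.1 to 18.5 with Helicon4_100mpk. The lower sums lay in PMP22, with means of 18, 18.8, 4.21 and 4.05 CPM in these groups, and its part in the NCAM1 result was not tested. The other Schwann cell markers did not share this: their means in vehicle and at 100 mpk were 2.16 and 2.95 CPM for ERBB3, 6.59 and 7.40 CPM for MBP and 3.57 and 3.27 CPM for PRX. Of 8 natural killer cell markers GZMB and KLRC1 had a row, summing to 2.69 to 4.81, 1.41 to 5.84, 3.31 to 5.34 and 1.81 to 3.88 CPM in the same order.

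SYP encodes synaptophysin, a membrane protein of small synaptic-like vesicles. Vehicle libraries had 6.11 to 11.3 CPM with a median of 7.96, and Helicon4neg_30mpk libraries 6.54 to 13.2 with a median of 7.46. With Helicon4_30mpk the lowest, median and highest were 5.94, 6.50 and 8.63 CPM. Helicon4_100mpk libraries had 5.76, 7.51, 5.23, 5.25 and 4.12 CPM. At the high dose 4 of 5 libraries were below every vehicle library and replicate 2 lay within the vehicle range. Means were 8.04 ± 1.63 (SD, n = 10), 8.55 ± 2.28 (n = 8), 6.86 ± 0.963 (n = 6) and 5.58 ± 1.24 CPM (n = 5).
SYP fell by 0.46 ± 0.14 (SE) on the log2 scale at 100 mpk against vehicle (limits -0.74 to -0.17, limma adjusted p = 0.013), with a mean CPM 0.694 times that of vehicle. This call was lost without Helicon4_100mpk replicate 5 (-0.37, adjusted p = 0.060), and it became a positive difference (0.41, adjusted p = 0.81) when title codes entered the fit as a block. The other comparisons were not called. At 30 mpk the difference from vehicle was -0.19 (limits -0.46 to 0.08, adjusted p = 0.37) and that from Helicon4neg -0.26 (limits -0.54 to 0.02, adjusted p = 0.23). Helicon4neg differed from vehicle by 0.07 (limits -0.18 to 0.32, adjusted p = 0.82), and 100 from 30 mpk by -0.27 (limits -0.58 to 0.05, adjusted p = 0.38).

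SEZ6 had the lowest mean level per kb of the 5 genes in vehicle tumors and gave no call. Vehicle libraries had 0.235 to 1.19 CPM with a median of 0.517, and Helicon4neg_30mpk libraries 0.285 to 1.35 with a median of 0.610. With Helicon4_30mpk the lowest, median and highest were 0.426, 0.823 and 2.31 CPM. Helicon4_100mpk libraries had 0.410, 0.284, 0.507, 0.337 and 0.935 CPM. All groups overlapped, and the highest library, Helicon4_30mpk replicate 1, also had the highest length slope. Means were 0.579 ± 0.294 (SD, n = 10), 0.698 ± 0.335 (n = 8), 1.04 ± 0.666 (n = 6) and 0.495 ± 0.260 CPM (n = 5).
The spread exceeded counting error: in vehicle the coefficient of variation was 50.7% where counting alone gives 20.7%. The log2 differences were -0.07 (limits -0.39 to 0.24, limma adjusted p = 0.75) at 100 mpk and 0.34 (0.04 to 0.64, adjusted p = 0.15) at 30 mpk against vehicle. Helicon4_30mpk differed from Helicon4neg by 0.23 (-0.08 to 0.55, adjusted p = 0.34) and Helicon4neg from vehicle by 0.10 (-0.17 to 0.38, adjusted p = 0.74). Between 100 and 30 mpk the difference was -0.41 (-0.76 to -0.06, adjusted p = 0.20). With the host-marker covariate SEZ6 was called higher at 30 mpk against vehicle (0.63, adjusted p = 0.0056) and against Helicon4neg (0.64, 0.017).

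UCHL1 was the most abundant member and was not called in any of the 5 comparisons. Vehicle libraries had 487 to 820 CPM with a median of 638, and Helicon4neg_30mpk libraries 423 to 1386 with a median of 496. With Helicon4_30mpk the lowest, median and highest were 400, 512 and 616 CPM. Helicon4_100mpk libraries had 664, 792, 551, 573 and 511 CPM. The groups overlapped throughout, and Helicon4neg_30mpk replicate 2 stood above all other libraries. Means were 621 ± 104 (SD, n = 10), 598 ± 322 (n = 8), 522 ± 80.1 (n = 6) and 618 ± 112 CPM (n = 5).
The log2 difference from vehicle was -0.01 at 100 mpk (limits -0.38 to 0.37, limma adjusted p = 0.98), -0.25 at 30 mpk (-0.60 to 0.11, adjusted p = 0.38) and -0.15 with Helicon4neg (-0.48 to 0.17, adjusted p = 0.66). At matched dose Helicon4 differed from Helicon4neg by -0.09 (-0.47 to 0.28, adjusted p = 0.78), and 100 from 30 mpk by 0.24 (-0.18 to 0.66, adjusted p = 0.61).
UCHL1 tracked the length slope of the libraries. The library with the lowest slope, Helicon4neg_30mpk replicate 2, had the highest UCHL1 and SYP (1386 and 13.2 CPM), and vehicle replicate 6, next in slope, ranked second in both (820 and 11.3 CPM). The lowest UCHL1, 400 CPM, was in the library with the highest slope. Group means of the slope were -0.040 (vehicle), -0.0072 (Helicon4neg_30mpk), 0.043 (Helicon4_30mpk) and 0.039 (Helicon4_100mpk). With the slope as a covariate UCHL1 was called higher at 100 mpk against vehicle (0.28, adjusted p = 0.0013) and against 30 mpk (0.22, 0.034). Without Helicon4neg_30mpk replicate 2 it was called lower with Helicon4neg than with vehicle (-0.34, adjusted p = 0.023).

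**Figure D3:**
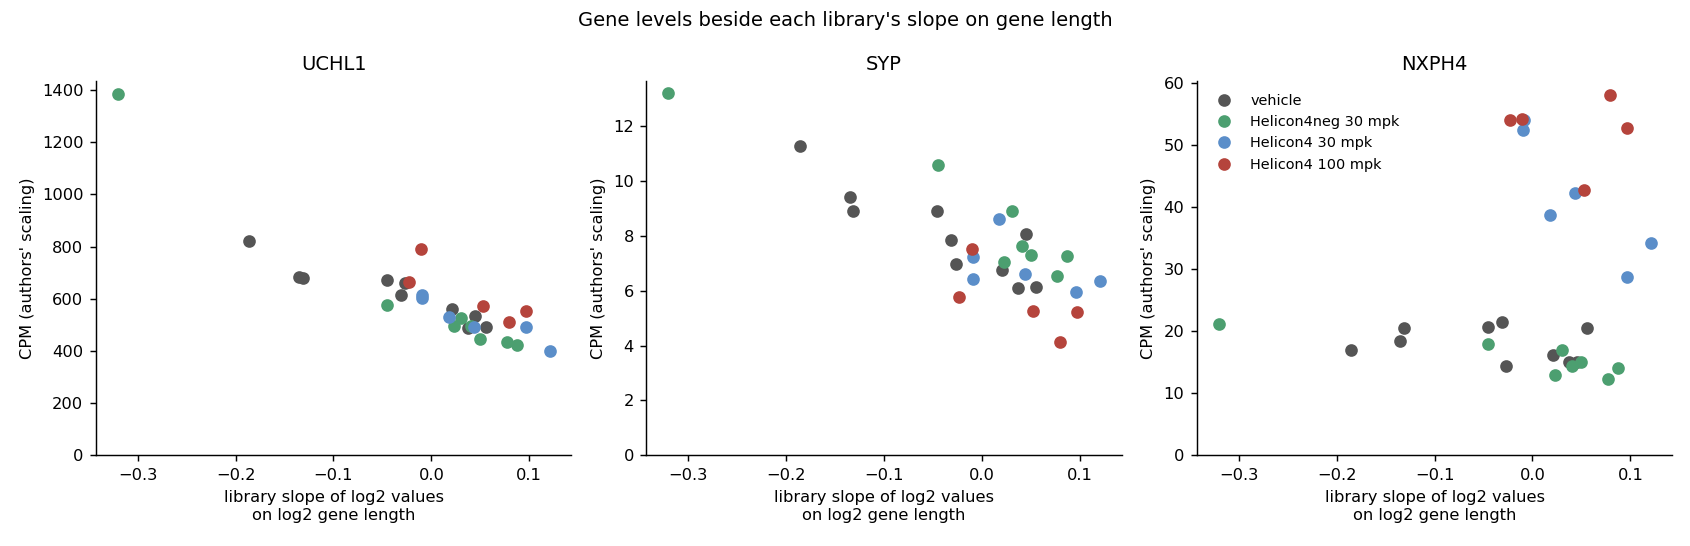
CPM (vertical axes, from 0) of UCHL1, SYP and NXPH4 against each library's slope of log2 values on log2 gene length (horizontal axis); points are the 29 libraries, colored by group. UCHL1 reaches 1386 CPM in the library with the lowest slope, -0.321, while NXPH4 separates by treatment at similar slopes.

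Genes that work with each member were then described through 11 lists, most with the share of tested genes called at 100 mpk against vehicle, to be read beside 30.2% of all genes. In the neurexin system 14 of 17 listed genes were tested. At 100 mpk against vehicle 4 rose (NXPH4, NRXN2, LRRTM1, NXPH1) and 2 fell (NXPH3, ADGRL1), 42.9% in all, with a list median of 0.26 against 0.01 over all genes. NRXN2, a presynaptic neurexin, went from 1.86 ± 0.372 (SD, n = 10) to 7.61 ± 0.367 CPM (n = 5), a log2 change of 1.60 (limma adjusted p = 6.6e-12). LRRTM1, a postsynaptic neurexin partner, went from 0.928 to 3.24 CPM (1.13, adjusted p = 1.6e-08). The paralog NXPH1 went from 8.40 to 17.4 CPM (0.95, adjusted p = 0.00024), and the paralog NXPH3 from 1.21 to 0.677 CPM (-0.40, adjusted p = 0.015). NXPH4 and NXPH1 are ligands of neurexins, LRRTM1 a partner across the synapse and NRXN2 a neurexin itself.
Against Helicon4neg at 30 mpk NRXN2, NXPH4, LRRTM1, ADGRL3 and NXPH1 were higher and NXPH3 lower, with a list median of 0.12 against 0.00. NRXN2 differed by 1.43, LRRTM1 by 0.78 and NXPH1 by 0.90. With the title code as a block, NRXN2 (2.36, adjusted p = 0.0021) and LRRTM1 stayed called at 100 mpk against vehicle and NXPH1 (0.47, 0.84) did not.

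The NCAM family and its polysialylation enzymes had 7 of 14 genes tested, of which 3 fell (NRCAM, NCAM1, ST8SIA4) and 1 rose (GAP43) at 100 mpk against vehicle, 57.1% in all, with a median of -0.09. NRCAM, a related adhesion molecule, went from 6.52 ± 2.62 (SD, n = 10) to 1.13 ± 0.394 CPM (n = 5), a log2 change of -1.76 (limma adjusted p = 1.4e-07). ST8SIA4, which adds polysialic acid to NCAM1, went from 12.4 to 7.52 CPM (-0.69, adjusted p = 0.0026). GAP43, a growth-cone protein, went from 24.4 to 35.7 CPM (0.51, adjusted p = 0.00098). At matched dose NRCAM (-1.13) and NCAM1 were lower and GAP43 (0.37) higher than with Helicon4neg. The host-marker covariate ended the ST8SIA4 call (-0.35, adjusted p = 0.22) and that of NRCAM against Helicon4neg (-0.76, 0.060).
The SEZ6 family with its BACE proteases had 4 of 5 genes tested. SEZ6L2, the paralog of SEZ6, rose from 3.52 to 6.38 CPM at 100 mpk (0.72, limma adjusted p = 5.3e-05), and BACE2 fell from 1.42 to 1.05 CPM (-0.23, 0.039). BACE1, the protease known to cut SEZ6, differed by 0.19 (adjusted p = 0.15). These were 50% of the list, and the list median was 0.06. At matched dose 0 of the 4 were called by limma, edgeR or DESeq2, with 1 at an unadjusted p under 0.05 in limma, and SEZ6L2 differed by 0.22 (adjusted p = 0.26).

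Neuroendocrine transcription factors had 7 of 24 genes tested, with INSM1 among those not analysed here. MYT1, a zinc-finger factor of neural and endocrine progenitors, rose from 4.14 ± 0.571 (SD, n = 10) to 11.3 ± 1.99 CPM (n = 5) at 100 mpk (1.25, limma adjusted p = 3.9e-10). NKX2-1 fell from 5.34 to 2.52 CPM (-0.84, adjusted p = 1.5e-06) and HES6 from 76.5 to 43.0 CPM (-0.80, 0.0024). These 3 were 42.9% of the list, and the list median was -0.26. At matched dose MYT1 was higher (1.03) and NKX2-1 lower (-0.73) than with Helicon4neg. Among 14 corepressor genes of INSM1 and REST, 4 rose at 100 mpk (GSE1, RCOR1, RCOR2, RCOR3), with a median of 0.20. All 4 calls were higher, 28.6% of the list, beside 14.3% of all genes called higher and 30.2% called either way. RCOR2 went from 9.63 to 15 CPM (0.59, adjusted p = 0.00033) and was also higher at matched dose (0.59), as were GSE1 and RCOR1. With Helicon4neg against vehicle limma called GSE1 (0.30, adjusted p = 0.033) higher and HDAC2 (-0.26, 0.0038) lower.
The Notch pathway, which restrains neuroendocrine fate, had 10 of 13 genes tested, with 3 lower at 100 mpk (JAG2, HEY1, DLL3) and a median of -0.21. All 3 calls were lower, 30% of the list, beside 15.9% of all genes called lower and 30.2% called either way. JAG2 went from 76.9 to 42.0 CPM (-0.86, limma adjusted p = 1.1e-05), HEY1 from 14.6 to 10.4 CPM and DLL3, an inhibitory ligand, from 11.9 to 7.90 CPM (-0.52, 0.019). At matched dose HEY1, JAG2, HES1 and JAG1 were lower and HEYL higher.

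Vesicle genes moved in both directions around SYP. Of 24 synaptic vesicle and exocytosis genes tested (35 listed), 5 rose (SYT11, RAB3B, RIMS1, RAB3D, BSN) and 6 fell (SV2A, RPH3A, RAB3A, SYP, SYNGR2, SYNGR1) at 100 mpk, 45.8% in all, with a median of -0.06. SYT11 went from 12.0 to 20.1 CPM (0.71, limma adjusted p = 3.5e-05), while SV2A, a vesicle glycoprotein, went from 150 to 119 CPM (-0.33, 0.00029). SYPL1, the paralog of SYP, differed by 0.11 (adjusted p = 0.57). At matched dose 3 of the 24 were higher (RIMS1, RAB3B, VAMP1), 12.5% of the list beside 15.1% of all genes called either way.
Dense-core granule genes had 7 of 21 tested, of which PAM, VGF and CPE fell and CADPS2 rose at 100 mpk, 57.1% in all, with a median of -0.45. VGF, a neuropeptide precursor, went from 2.37 to 0.641 CPM (-1.01, limma adjusted p = 0.00041), PAM, the peptide-amidating enzyme, from 202 to 136 CPM (-0.57, 0.00020), and CADPS2, a granule-release factor, from 11.9 to 21.2 CPM (0.80, 7.1e-06). At matched dose 0 of the 7 were called by limma, with 4 at an unadjusted p under 0.05, 0 called by edgeR and 2 by DESeq2 (1 in each direction).
Around UCHL1, 8 ubiquitin genes were tested, with a list median of -0.19 at 100 mpk. The related hydrolases were not called by limma, UCHL3 at -0.24 (adjusted p = 0.29), UCHL5 at -0.08 (0.66) and BAP1 at -0.21 (0.068). Neuronal cytoskeleton and other neuronal markers had 14 of 24 tested. DPYSL3, DPYSL5, KIF5C and KIF1A fell at 100 mpk, with a list median of -0.18. All 4 calls were lower, 28.6% of the list, beside 15.9% of all genes called lower and 30.2% called either way. At matched dose MAPT was higher and MAP1B lower, 14.3% of the list. The single tested enteroendocrine gene, TPH1, the serotonin-synthesis enzyme, differed from vehicle by -0.08 (adjusted p = 0.71) at 100 mpk and was lower than with Helicon4neg at matched dose (-0.53, limma adjusted p = 0.0088).
Most of these calls rest on comparisons across title codes. With the code as a block, the genes of these lists that stayed called at 100 mpk against vehicle were NXPH4, NRXN2, LRRTM1, NRCAM, SEZ6L2, MYT1 and RCOR2, while over all genes the count went from 4043 to 141. At matched dose those that stayed called were NXPH4, NRXN2, MYT1 and RCOR2, with Helicon4_30mpk replicate 1 alone on the Helicon4 side of that fit. The fit at 100 mpk passes through the same library. A call kept or lost under the block can thus reflect the few linking libraries as well as the code, and these were not told apart. The host-marker covariate ended the calls at 100 mpk of ST8SIA4, BACE2, NXPH3, ADGRL1, RCOR3, HEY1, CPE, RPH3A, SYNGR1, SYNGR2, RAB3A, RAB3B, BSN, DPYSL3, DPYSL5, KIF5C and KIF1A, and at matched dose those of NRCAM, GAP43, NXPH3, JAG1, JAG2, HES1, VAMP1, RAB3B and MAP1B. Single libraries decided others: the DLL3 call was lost without Helicon4_100mpk replicate 3 (-0.46, adjusted p = 0.067) and that of KIF5C without replicate 1 (-0.26, 0.12). Near the threshold, the calls at 100 mpk of NXPH3, ADGRL1, BACE2, RCOR3, CPE, BSN, SYNGR1, SYNGR2 and KIF1A, and at matched dose those of GAP43, GSE1, RCOR1, JAG1, JAG2, HES1, HEYL, VAMP1, MAPT and MAP1B, were each lost in at least one fit that left out a library.

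**Figure D4:**
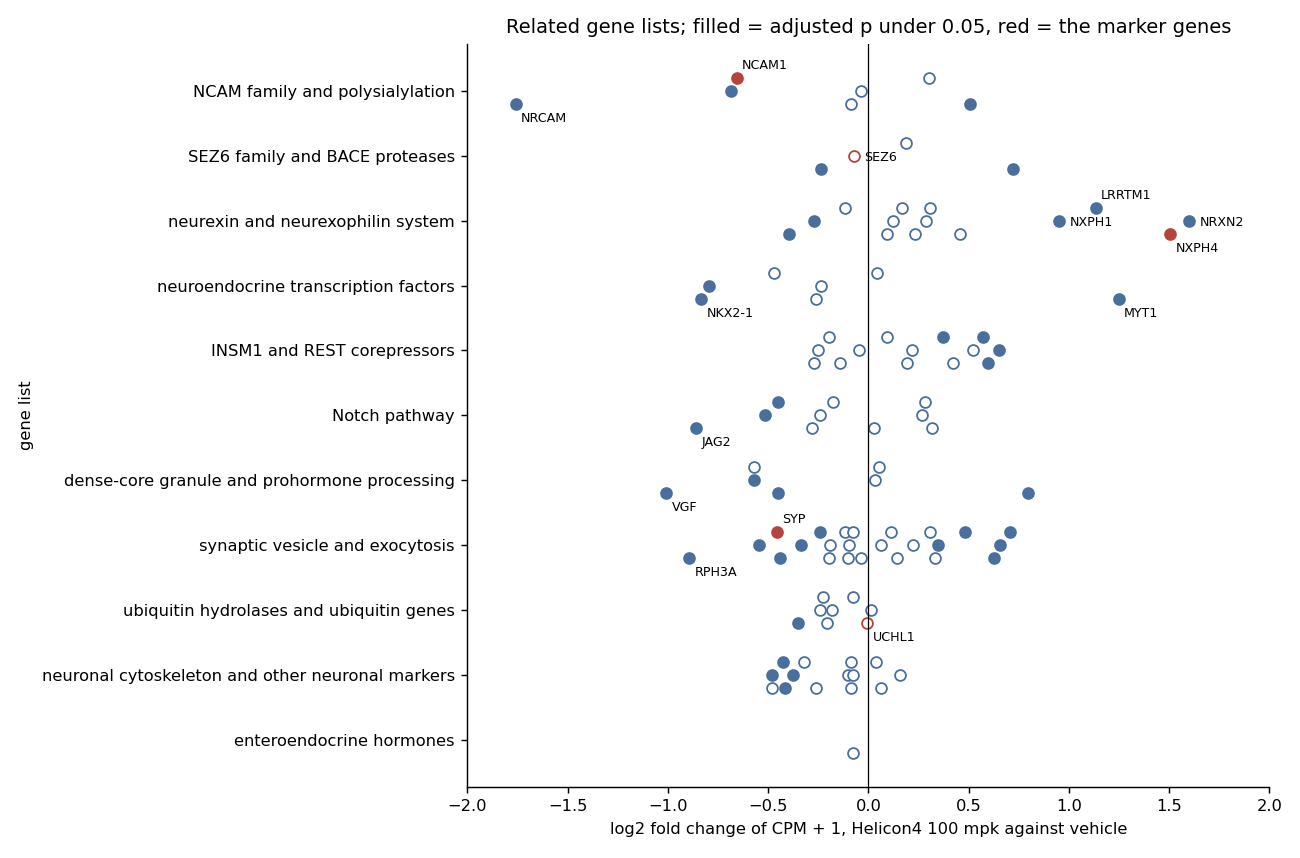
Log2 fold change of CPM + 1 (horizontal axis) at Helicon4 100 mpk against vehicle for each tested gene of 11 lists (rows); red points are the marker genes, filled points have an adjusted p under 0.05. NXPH4 lies beside NRXN2, LRRTM1 and NXPH1, and NCAM1 lies between NRCAM at -1.76 and GAP43 at 0.51.

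Genes whose log2 levels followed each member most closely over the 29 libraries are given as a description, since libraries share treatment and depth. For NXPH4 they were DENND2A (Pearson r = 0.963), PLCD1 (0.948) and BMF (0.945). After group means were removed these became 0.595, 0.713 and 0.240. For NCAM1 they were AFAP1L2 (0.900), MMP2 (0.896) and HSPA12A (0.895), falling to 0.501, 0.560 and 0.517 within groups. MMP2 is also one of the fibroblast markers used here and averaged 156 CPM in vehicle and 71.6 CPM with Helicon4_100mpk. For SYP the nearest were LINC01123 (0.904), PSMG4 (0.903) and AC093838.4 (0.885), and for UCHL1 ATPIF1 (0.977), TRAPPC4 (0.971) and NDUFB2 (0.968). These held within groups as well, at 0.843, 0.866 and 0.847 for SYP and 0.981, 0.971 and 0.971 for UCHL1. SEZ6 was followed less closely, by SLIT1 (0.743), PREX1 (0.671) and PHACTR1 (0.631). The members thus differed in how much of their likeness lay between groups.

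**Figure D5:**
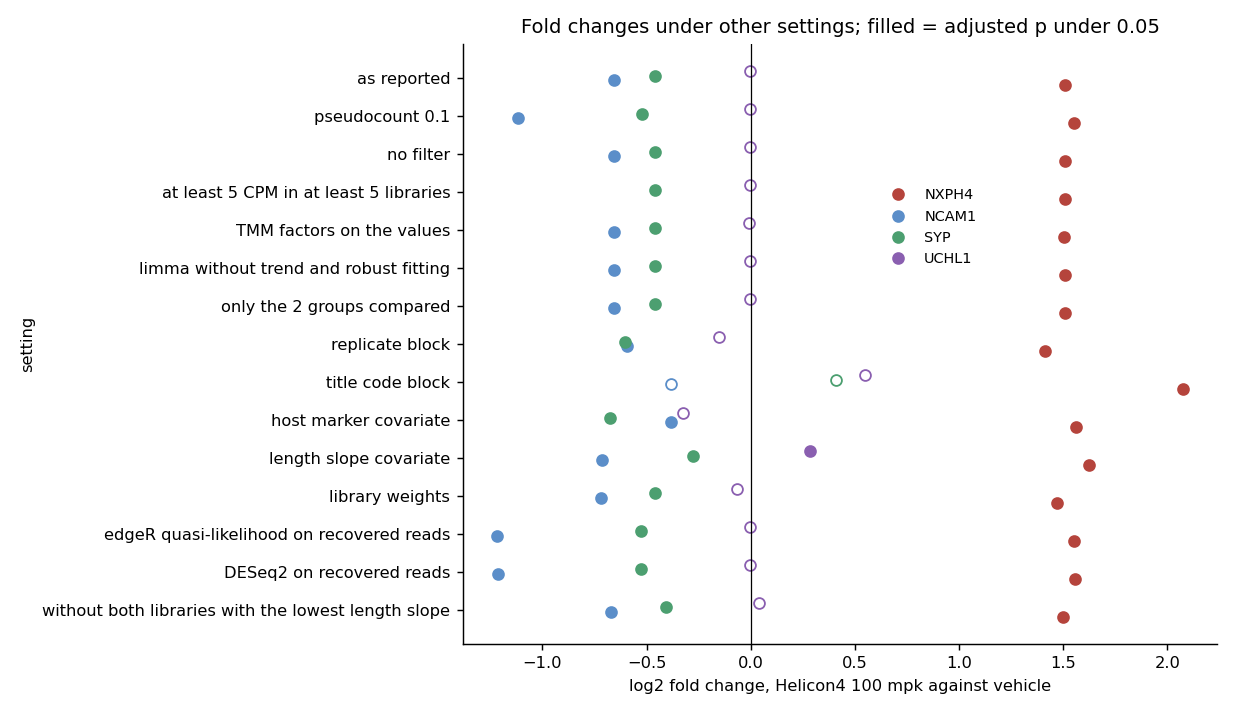
Log2 fold change at Helicon4 100 mpk against vehicle (horizontal axis) for NXPH4, NCAM1, SYP and UCHL1 under each alternative setting (rows); filled points have an adjusted p under 0.05. NXPH4 stays filled in each setting, and NCAM1 and SYP become open with the title code as a block.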

How the data were processed

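PolyA RNA of 29 tumors was sequenced on a NovaSeq S4, per the labels' protocols. Per the submitters' processing notes, Trimmomatic 0.39, STAR 2.7.7a, featureCounts (Subread 2.4.2), edgeR 4.0.2 and GRCh38 were used; settings, annotation and any mouse genome are not given in the sources used here. The deposited signal is the authors' CPM after a between-library scaling, with columns summing to 0.921 to 1.26 M, and 100% of values in each library were whole reads within 0.05 reads. The main test was limma 3.58.1 (R 4.3.3; trend, robust; two-sided) on log2(CPM + 1), fitting the 4 groups together over the 13373 genes that reached 1 CPM in 5 or more libraries. The count tests written for raw counts (edgeR 4.0.16 quasi-likelihood, DESeq2 1.42.0) served as alternatives on recovered reads, beside other pseudocounts, filters, scalings, blocks, covariates, library weights and each library left out. Marker genes, lists and tests were chosen with earlier results of these data known. Named genes are the members, up to 3 list genes with the smallest adjusted p at 100 mpk, paralogs, and the 3 nearest genes per member; other called list genes are named because the count was small, after their values were seen. Some list results are not reported here. Table lengths matched GENCODE 29 for 12060 of 13479 genes found. On simulated data for 100 mpk against vehicle (13173 genes), 88.9% of 2-fold and 99.0% of 4-fold changes were recovered, with 0.0462% of unchanged genes called. The simulated libraries were drawn independently, with no title code, length slope or other shared library effect, so these rates do not cover such effects. The p-values from exact permutation of each member's values were computed as a further alternative. Replicate numbers do not pair libraries (35 pairs, residual correlations -0.70 to 0.52, 15 above 0.1).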

Additional observations from a re-analysis of the deposited data

Results flagged for a closer look

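Among 20 sets of libraries (5 genes in 4 groups), 2 held a library far from the others by Dixon's criterion at the 95% level, which chance alone passes in about 1 of 20 sets. NCAM1 in Helicon4_30mpk replicate 1 was 1.54 CPM, with a gap over the range of 0.626 against a critical value of 0.625. Without it the NCAM1 difference was -0.59 against both vehicle and Helicon4neg, and both stayed called. UCHL1 in Helicon4neg_30mpk replicate 2 was 1386 CPM, with a ratio of 0.739 against 0.526. That library also had the lowest length slope of the 29.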

How the results depend on the processing

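NXPH4 kept its direction and its call at both doses against vehicle and at matched dose in every alternative run. NCAM1 (1.83 CPM in vehicle) and SEZ6 are not testable with a filter of 5 CPM, and SEZ6 also drops out when some libraries are left out. Depth limits NCAM1 and SEZ6, with as few as 22 and 9 reads in a library. The count of members called went from 3 to 1 at 100 mpk against vehicle with the title code block. At 30 mpk against vehicle and at matched dose it went from 2 to 1 with that block and with the 5 CPM filter. For Helicon4neg against vehicle it went from 0 to 2 with library weights and to 1 without both low-slope libraries, and ranged from 0 to 1 with one library left out (1 without Helicon4neg_30mpk replicate 2). Between doses it went from 0 to 2 with the length slope covariate and to 1 with library weights. The cause was not tested. Leaving out one library gave 2 to 3 calls at 100 mpk against vehicle.

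Signs turned as follows, all log2 differences. With the title code block at 100 mpk against vehicle: SEZ6 0.67, SYP 0.41, UCHL1 0.55, BACE2 0.15, HES6 0.18, DLL3 0.32, VGF 0.87, SYPL1 -0.31, BAP1 0.087, UCHL3 0.40, ADGRL1 0.20, SYNGR1 0.085 and SYNGR2 0.21. With that block at 30 mpk against vehicle SYP was 0.42 and UCHL1 0.17, and for Helicon4neg NCAM1 was -0.19, UCHL1 0.34, GAP43 0.045 and RCOR2 0.17. The length slope covariate gave UCHL1 0.28 and SYPL1 -0.028 at 100 mpk, SYP 0.0030 and UCHL1 0.059 at 30 mpk, NCAM1 -0.019 for Helicon4neg, and UCHL1 0.093 at matched dose. Library weights gave SYP 0.031 at 30 mpk, NCAM1 -0.029 and NRXN2 -0.014 for Helicon4neg, and UCHL1 0.13 at matched dose. The host marker covariate gave SEZ6 0.35 and UCHL5 0.0051 at 100 mpk, and NCAM1 -0.068 and SEZ6 -0.0095 for Helicon4neg. Without both low-slope libraries UCHL1 was 0.041 at 100 mpk and 0.097 at matched dose, and NRXN2 -0.0085 for Helicon4neg. The edgeR test gave NCAM1 -0.0030 for Helicon4neg. With one library left out UCHL1 ranged from -0.099 to 0.058 and UCHL5 from -0.13 to 0.033 at 100 mpk, NCAM1 from -0.024 to 0.048 and SYP from -0.017 to 0.12 for Helicon4neg, and UCHL1 from -0.15 to 0.097 at matched dose.

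With the replicate number as a block (replicate block) the members called stayed at 3, 2, 0, 2 and 0 in the 5 comparisons, UCHL5 was 0.0061 at 100 mpk and SYP -0.012 for Helicon4neg. The numbers do not pair the libraries, since 0 of 27 had their highest correlation with a library of the same number. Over all genes and members named, 2945 alternative values kept direction and call, 239 lost the call, 32 gained one and 59 changed sign.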
